A study of Homo sapiens with 22 samples.

Results

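SIRPB1, FCER1G, LAPTM5, CYTIP, SRGN and LMO2 are 6 genes best known from blood cells, and they were followed here through melanoma cell lines. They were picked by name out of 33538 genes because earlier results of these data had shown UMI counts of them in primed WM989 cells, the cells that the study holds to survive targeted therapy. The difference between primed and drug-susceptible WM989 cells therefore chose the genes and is given as a description with no test.

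SIRPB1 is a receptor of myeloid cells that has no signaling motif of its own and pairs with the adaptor TYROBP. FCER1G is the gamma chain shared by Fc receptors, an adaptor that carries the activation motif for receptors lacking one. LAPTM5 is a lysosomal membrane protein of blood cells that helps send antigen receptors to degradation. CYTIP binds cytohesins, which act on integrins, and lowers the adhesion of lymphocytes and dendritic cells. SRGN is the core protein of serglycin, the chondroitin sulfate proteoglycan of leukocyte secretory granules, and is also secreted by many tumor cells. LMO2 is a LIM-only protein that bridges DNA-binding factors in blood stem cells through LDB1 and is an oncogene in T-cell leukemia.

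The study used WM989 and WM983B, human melanoma lines that were each grown from single-cell clones, so that each line stands for 1 clonal background. The first experiment held untreated, lineage-barcoded WM989 cells in 8 wells, from mixed cultures and from cultures sorted for high EGFR and NGFR, in replicates r1 and r2. The sort of each well is not in the cell labels, and wells that shared a culture are not separate cultures. The second held untreated WM983B cells in 1 library. The third held WM989 cells that were left untreated or were given recombinant TGFB1, the TGFBR1/2 inhibitor LY2109761 (TGFBRi) or the PI3K inhibitor GDC-0941 (PI3Ki), with 2 libraries per condition, and the 4 libraries of a replicate came from the same starting cells. Sample labels name the 2 libraries of a condition Mix and Primed, while the methods describe parallel replicates. Whether the starting cells of r1 and r2 were alike is thus not settled. In ATAC-seq, which reads open chromatin, WM989 cells were sorted as EGFR-high, NGFR-high, EGFR/NGFR-high or Mix with 3 libraries each, and the methods describe the fourth population as negative for both markers.

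The single-cell data held 12531 cells with 35882876 to 177318308 UMIs per well, 1449 cells with 102738398 UMIs for WM983B, and 40021 cells with 70239657 to 122420544 UMIs per library in the treatment experiment. Of 12512 and 39827 distinct cell barcodes in the 2 WM989 experiments, 19 and 194 appeared in more than 1 library. The cell labels of the authors, made from their clusters, class 2843, 731 and 4077 cells as primed in the order of the experiments. Melanocyte genes (SOX10, MITF, PMEL, MLANA, TYR, DCT and TYRP1) summed to 4585 to 5435 CPM in drug-susceptible cells of the wells and to 110 to 525 CPM in primed cells. A level is given here as CPM, the counts of a gene scaled to a fixed total of UMIs of the same cells, and its intervals of 95% cover counting error only.

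In untreated WM989 cells, SRGN, SIRPB1, CYTIP, LMO2 and LAPTM5 were between 72.3 and 484 times higher in primed than in drug-susceptible cells, while FCER1G was 1.48 times higher. The 6 genes were higher in primed cells in 8 of 8 wells, as were 29.1% of the 13194 genes that reached 1 CPM in one of the states. For 5 of the 6 the lowest primed well lay above the highest drug-susceptible well, as for 13.9% of genes. The same 5 were over 10-fold higher with every well higher, as were 3.16% of genes. These values chose the genes, and nothing is read from the counts.

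SIRPB1 (chromosome 20 of hg38, 1561385 to 1620061, minus strand) had 20.4 CPM in the lowest primed well, a median of 45.4 and 78.0 in the highest. In drug-susceptible cells its level ran from 0.0655 through a median of 0.167 to 1.87 CPM, so the wells of both states stayed apart. Pooled over wells its levels were 60.6 and 0.174 CPM, a ratio of 349 (286 to 431). Cells with at least 1 SIRPB1 UMI made up 62.1% of the primed and 0.836% of the drug-susceptible cells, at median depths of 58253 and 52835 UMIs. With each cell thinned to 10000 UMIs these shares were 30.8% and 0.134%.

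The genes that SIRPB1 is known to work with, and its relatives, were at differing levels. TYROBP, the adaptor through which it signals in myeloid cells, had no UMI in any of the 12531 cells. SIRPA, the inhibitory receptor of the same family, was lower in primed cells, with 16.9 against 151 CPM. CD47, the ligand of SIRPA, had 84.3 and 65.3 CPM. SIRPD and SIRPG, close relatives beside SIRPB1 on the chromosome, had 1.04 and 1.05 CPM in primed cells and at most 0.00716 CPM in the others. Reads of these paralogs can be shared with SIRPB1 in the authors' counting, so their levels are uncertain.

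FCER1G (chromosome 1, 161215234 to 161220699, plus strand) had the highest pooled level of the 6 in drug-susceptible WM989 cells, although SRGN lay above it in wells 5 and 6. Its primed level was 11.4, 15.1 and 20.3 CPM in the lowest, median and highest well, and its drug-susceptible level 3.41, 7.60 and 13.4 CPM. The wells of the states overlapped, although within every well the primed cells were higher. Pooled levels were 15.3 and 10.3 CPM, a ratio of 1.48 (1.42 to 1.55). FCER1G UMIs were seen in 49.0% and 35.1% of cells, or in 12.8% and 9.21% at 10000 UMIs per cell. The receptors that FCER1G serves in leukocytes were low. FCGR1A had no UMI in either state, FCER1A had 2 UMIs in drug-susceptible and 0 in primed cells, and FCGR2A, which does not need the gamma chain, had 3.69 CPM in primed against 7.68 CPM in drug-susceptible cells. The kinase SYK, which the motif recruits, had 0.182 CPM in primed cells.

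LAPTM5 (chromosome 1, 30732469 to 30757774, minus strand) had 3.02, 7.25 and 9.52 CPM in the lowest, median and highest primed well and 0.0218, 0.102 and 0.291 CPM in drug-susceptible cells. Its pooled levels were 6.08 and 0.0842 CPM, a ratio of 72.3 (54.0 to 98.9). Pooled over wells it was the lowest of the 6 genes in primed cells by UMI count, which is not scaled by transcript length, but LMO2 lay below it in wells 3, 4, 7 and 8 and CYTIP in wells 7 and 8. It was detected in 24.1% of primed cells. Its ubiquitously expressed relative LAPTM4A had 299 CPM in primed cells against 101 CPM. NEDD4L, a ubiquitin ligase of the family that binds LAPTM5, had 32.6 and 108 CPM.

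CYTIP (chromosome 2, 157414619 to 157488961, minus strand) had 4.85, 20.2 and 37.8 CPM in the lowest, median and highest primed well. In drug-susceptible cells the median was 0.0558 CPM and the highest well 0.935 CPM, and well 1 had no UMI, which allows a level of up to 0.173 CPM there. Pooled levels were 25.4 and 0.0824 CPM, a ratio of 309 (231 to 423). Its cytohesin partners were present in both states, with CYTH2 at 33.4 CPM in primed cells against 16.3 CPM, and CYTH3 at 9.91 against 32.8 CPM. ITGB2, the beta chain of the leukocyte integrins that CYTIP acts on, had 2 UMIs in primed and 1 in drug-susceptible cells.

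SRGN (chromosome 10, 69088103 to 69104805, plus strand) was the most abundant of the 6 by UMI count. It had 182, 266 and 485 CPM in the lowest, median and highest primed well and 0.524, 2.24 and 10.7 CPM in drug-susceptible cells. The pooled levels were 349 and 1.72 CPM, a ratio of 203 (190 to 216). Cells with a SRGN UMI were 92.5% of the primed and 5.82% of the drug-susceptible cells, or 76.6% and 1.21% at 10000 UMIs per cell. CD44, a receptor of serglycin, had 831 CPM in primed cells against 142 CPM. CHST15, which makes the highly charged chondroitin sulfate E, had 7 UMIs in all drug-susceptible cells and 885 UMIs, or 4.61 CPM, in primed cells. Of the 13 genes listed for chondroitin sulfate synthesis and the receptor, 12 reached 1 CPM, and among these 4 were over 2-fold higher and 1 over 2-fold lower in primed cells, as were 13.7% and 7.91% of all genes.

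LMO2 (chromosome 11, 33858576 to 33892076, minus strand) had the highest ratio when wells were pooled, with an interval that overlaps those of SIRPB1 and CYTIP, and the widest range over primed wells as a fold. Its level was 1.56, 11.0 and 29.2 CPM in the lowest, median and highest primed well. Drug-susceptible wells had a median of 0.0411 CPM and a maximum of 0.485 CPM, and well 3 had none. The pooled levels were 17.3 and 0.0358 CPM, a ratio of 484 (313 to 794) that rests on 20 UMIs in 9688 drug-susceptible cells. LDB1, through which LMO2 acts, was at 26.0 and 25.1 CPM in primed and drug-susceptible cells. The blood factors TAL1 and LYL1 were each at or below 0.0520 CPM in both states, while GATA3 had 3.03 and 0.460 CPM and FLI1 3.36 and 0.942 CPM. LMO4, a relative of wide expression, had 110 and 63.6 CPM.

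**Figure D1:**
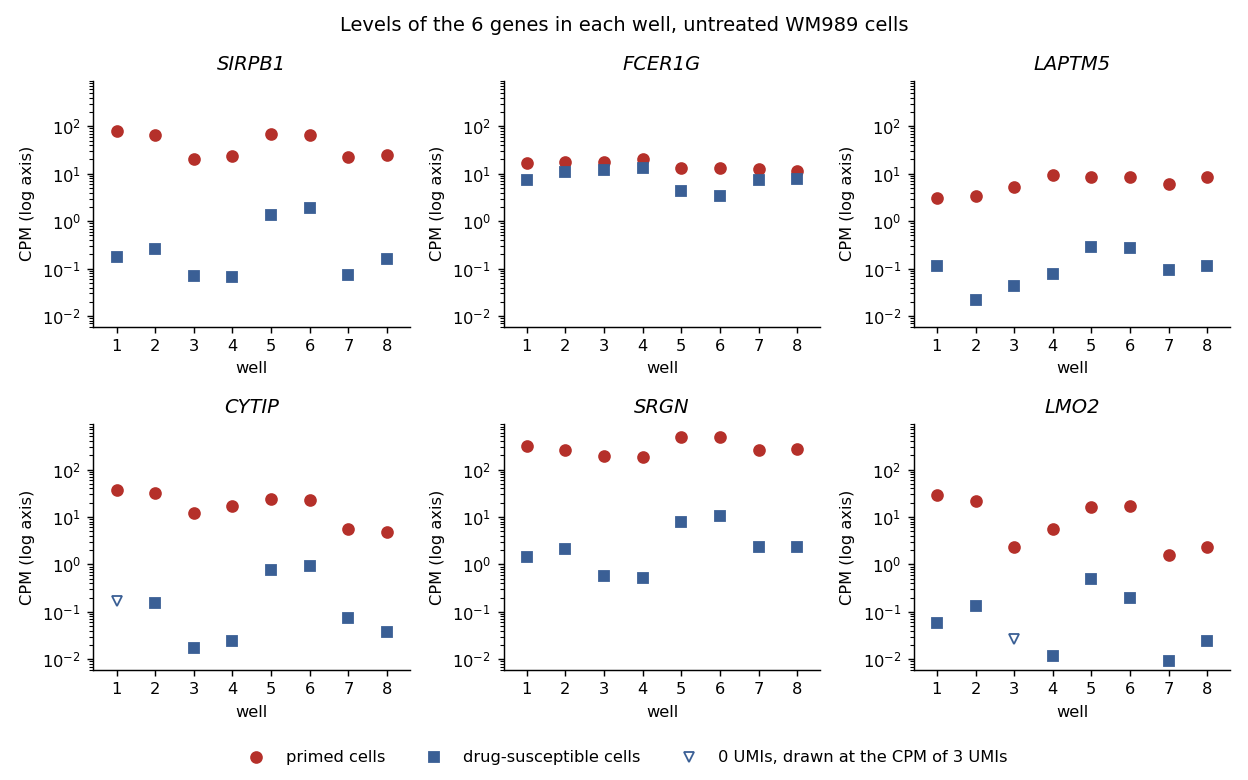
CPM (log axis) of the 6 genes in primed (circles) and drug-susceptible (squares) cells of each of the 8 wells of untreated WM989 cells, with triangles at the CPM of 3 UMIs where no UMI was found. For 5 genes all circles lie above all squares, and for FCER1G the primed wells at 11.4 to 20.3 CPM overlap the drug-susceptible wells at 3.41 to 13.4 CPM.

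Primed cells differed between wells in the level of SIRPB1, LMO2, CYTIP and SRGN. In wells 1 to 8, of which 1 to 4 are replicate r1, primed cells made up 56.9, 62.4, 7.87, 6.85, 79.7, 76.9, 9.17 and 9.42% of the cells. Their SIRPB1 level was 78.0, 66.5, 20.4, 24.0, 69.1, 65.8, 22.6 and 25.0 CPM in the same order, and their LMO2 level 29.2, 21.7, 2.36, 5.50, 16.6, 17.2, 1.56 and 2.36 CPM. Both genes were thus highest in wells 1, 2, 5 and 6, as was CYTIP, which had 37.8, 31.9, 12, 17.2, 24.1, 23.2, 5.58 and 4.85 CPM. LAPTM5 and FCER1G did not follow this order, since LAPTM5 was lowest in well 1 and highest in well 4 and FCER1G highest in well 4 and lowest in well 8. SRGN had 312, 256, 197, 182, 483, 485, 255 and 276 CPM, and so was higher in wells 1 and 2 than in 3 and 4 and higher in wells 5 and 6 than in 7 and 8. The makeup of the primed state moved with these levels, because cluster 8 made up 5.08, 8.97, 71.4, 73.4, 5.23, 4.25, 59.2 and 52.6% of the primed cells of the 8 wells. In cluster 9 alone, wells 1 to 8 had 68.9, 58.1, 21.2, 26.7, 65.7, 66.5, 21.2 and 27.2 CPM of SIRPB1. For LMO2 that cluster had 12.3, 15.0, 1.15, 2.36, 8.64, 4.68, 2.60 and 4.26 CPM. For CYTIP it had 62.0, 29.5, 14.9, 22.4, 23.2, 21.2, 8.16 and 3.83 CPM. The part of the makeup in the levels was not tested, and no well was assigned to a sort.

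In drug-susceptible cells SIRPB1, LAPTM5, CYTIP, SRGN and LMO2 were highest in wells 5 and 6, where primed cells made up 79.7% and 76.9%. SRGN had 7.96 and 10.7 CPM there against 0.524 to 2.36 CPM in the other 6 wells, and SIRPB1 had 1.36 and 1.87 CPM against 0.0655 to 0.262 CPM. FCER1G went the other way, with 4.27 and 3.41 CPM in wells 5 and 6, its lowest drug-susceptible values. Free RNA of primed cells gives UMIs in other cells of the same well, and its part in these low levels was not tested.

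Clusters of the authors separated the genes within the primed state. Pooled over wells, SIRPB1 had 73.8, 19.4 and 56.3 CPM in clusters 2, 8 and 9. LMO2 had 24.6, 5.16 and 8.32 CPM in the same order, and CYTIP 30.2, 8.80 and 25.1 CPM. Cluster 2 was thus highest for these 3 genes and cluster 8 lowest. LAPTM5 (5.56, 4.90 and 8.06 CPM), FCER1G (14.7, 12.9 and 18.3 CPM) and SRGN (367, 175 and 416 CPM) were highest in cluster 9. The clusters drew on the wells in unlike shares, and the gaps differed within wells. SIRPB1 had 84.7, 12.3 and 68.9 CPM in clusters 2, 8 and 9 of well 1 but 24.1, 19.6 and 21.2 CPM in those of well 3. CYTIP had 33.4, 3.35 and 62.0 CPM in those of well 1. Over the 8 drug-susceptible clusters FCER1G ran from 6.19 to 12.4 CPM and SRGN from 0.718 to 4.56 CPM. The clusters were built from the expression of these cells, so the differences between them carry no test.

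**Figure D2:**
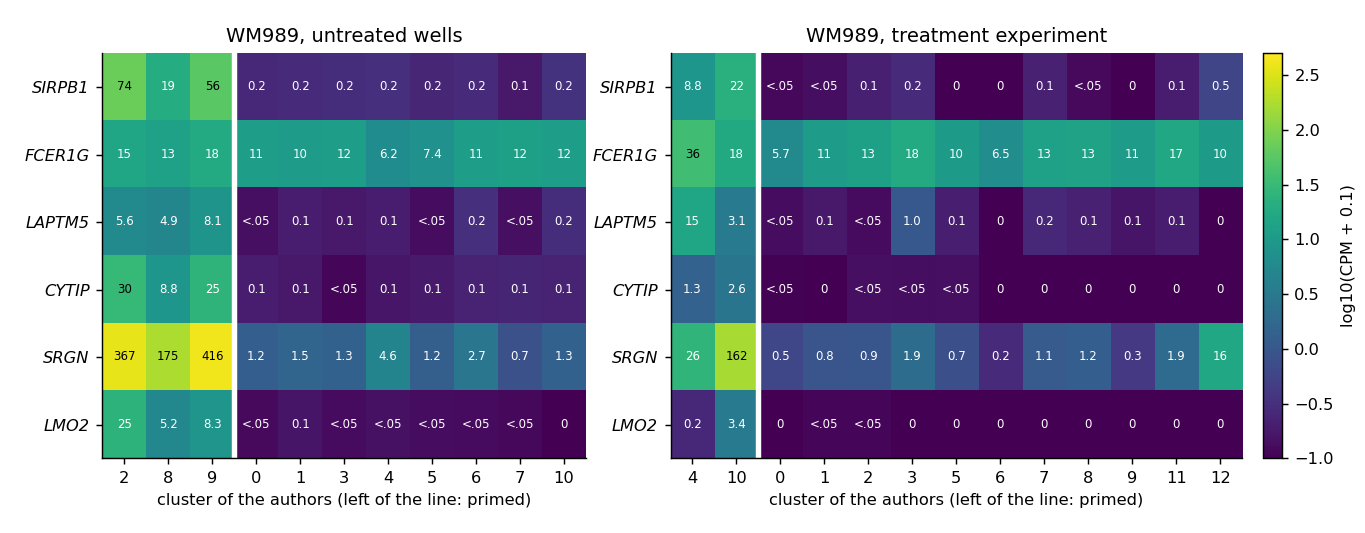
Heat map of the level of the 6 genes in the authors' clusters of the 2 WM989 experiments, as log10(CPM + 0.1), with CPM written in each cell and the primed clusters left of the white line. SRGN reaches 416 CPM in cluster 9 of the untreated wells and 162 CPM in cluster 10 of the treatment experiment, while FCER1G is the one gene above 5 CPM in every cluster.

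The replicates r1 and r2 of the untreated wells differed in the size of the levels. In primed cells SRGN had 256 CPM in r1 and 446 CPM in r2, and LAPTM5 4.09 and 8.17 CPM. FCER1G (17.7 and 12.9 CPM), LMO2 (20.2 and 14.3 CPM) and CYTIP (30.2 and 20.4 CPM) were higher in r1. SIRPB1 was close, at 61.4 and 59.7 CPM. By the authors' cell cycle phase, LMO2 had 20.8 CPM in primed cells called G1, 9.63 in G2M and 7.70 in S. LAPTM5 was highest in G2M at 9.04 CPM and lowest in S at 3.48 CPM.

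The genes were spread over primed cells unequally. LMO2 had a UMI in 26.7% of primed cells, and 80 cells, 2.81% of them, held as many as 50% of its UMIs. For SRGN 369 cells and for SIRPB1 254 cells held that share. The Fano factor, the variance over the mean at 10000 UMIs per cell, was 4.68 for SRGN, 3.58 for LMO2, 2.27 for SIRPB1, 1.90 for CYTIP, 1.18 for FCER1G and 1.08 for LAPTM5, where counting alone gives a value near 1. At that depth 447 primed cells (15.7%) had a UMI of at least 3 of the 6 genes, against 0 of 9688 drug-susceptible cells, which allows a share of up to 0.0310%.

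Some of the genes were found in the same primed cells more often than others. At 10000 UMIs per cell, SIRPB1 was found in 47.6% (r1) and 58.3% (r2) of primed cells with LMO2 and in 31.1% and 25.3% of those without. CYTIP was found in 27.6% and 26.4% of cells with LMO2 and in 17.2% and 12.6% of those without. LMO2 itself was found in 11.8% and 6.76% of cells with LAPTM5 and in 12.3% and 6.29% of those without. Cells with LAPTM5 more often held SRGN, in 88.2% and 86.5% against 73.1% and 80.6%, and FCER1G, in 23.5% and 13.5% against 14.5% and 9.48%. Each share pools 4 wells, which differed in SIRPB1, LMO2 and CYTIP, and is given without a test.

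Most defining markers of leukocytes were at or near 0 in the cells that held these genes. PTPRC, the pan-leukocyte surface phosphatase, had 0.0260 CPM in primed cells against 0.0591 CPM. CD53, CD3E, MS4A1, NKG7, ITGAM and HBB were each below 0.06 CPM in both states. SPI1, the master factor of myeloid cells, had 0.494 and 0.396 CPM. The 22 leukocyte and blood cell markers summed to 5.31 to 9.75 CPM in primed and 3.96 to 6.10 CPM in drug-susceptible cells of the wells. Besides CSF1R, the highest of them were CORO1A, an actin-binding protein of leukocytes, at 0.942 CPM (primed) and 2.14 CPM (drug-susceptible), TPSAB1, a mast cell tryptase, with 0.541 and 0.562 CPM, and LYZ, lysozyme, with 0.307 and 0.908 CPM. CSF1R, the macrophage growth factor receptor, had 3.21 and 0.0340 CPM, and without it the ranges were 2.06 to 6.21 and 3.91 to 6.10 CPM. Of primed cells 96.5%, and of drug-susceptible cells 94.2%, had a UMI of the lineage barcode that the study had put into WM989 cells, as had 96.3 to 97.9% of primed cells with a UMI of each of the 6 genes. Any lineage UMI counted here, while the study filtered its lineages further and reported fewer cells with barcodes. Such a UMI can also come from free RNA, so it does not by itself show that a cell was barcoded.

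Over the 24 clusters of the 2 WM989 experiments, the levels of CYTIP and LMO2 were the most alike among the 6 genes, with Pearson's r of 0.975 for log2(CPM + 1). SIRPB1 and SRGN followed with 0.969. FCER1G was the least like the others, with r from 0.307 (LMO2) to 0.707 (LAPTM5). Among the 11147 genes that reached 5 CPM in 1 or more clusters, those most like SIRPB1 were NRP1 (r = 0.994), IL1B (0.993) and LTBP1 (0.993). For FCER1G they were SIGLEC15 (0.823), CKLF (0.804) and PACS1 (0.802), and for LAPTM5 AC099552.1 (0.990), LTBP2 (0.989) and COL5A1 (0.989). For CYTIP they were KCNMA1 (0.998), DNER (0.996) and CHST15 (0.994), for SRGN OLFML3 (0.984), NEGR1 (0.982) and CEMIP (0.979), and for LMO2 FAIM2 (0.994), CAMP (0.985) and AKR1C3 (0.984). The points share libraries and the split between primed and other clusters, so these correlations only describe.

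The second melanoma line differed in the set. In WM983B 4 of the 6 genes had a ratio of primed to drug-susceptible CPM above 1, as did 60.1% of 13769 genes. There is 1 library, so no ratio has a replicate check. LAPTM5 stood out, with 25.9 CPM in primed cells against 6.88 CPM, a ratio of 3.76 (3.35 to 4.24), and its primed level was above that of every primed WM989 library, of which the highest had 15.8 CPM. SRGN had 12.3 and 10.7 CPM, a ratio of 1.15 (1.03 to 1.29). LMO2 had 0.983 and 0.705 CPM, with an interval of the ratio from 0.892 to 2.19. SIRPB1 rested on 14 and 20 UMIs, and the interval of its ratio ran from 0.361 to 1.61. CYTIP had no UMI in any of the 1449 cells, which allows 0.0292 CPM over the library.

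FCER1G and LAPTM5 differed between clusters of the same state in WM983B. FCER1G had 35.0 CPM in primed cluster 2, which holds 91 cells, and 4.55 CPM in primed cluster 0, below the 6.48 and 7.08 CPM of the drug-susceptible clusters 1 and 3. Of the 419 FCER1G UMIs of primed cells 226 were in cluster 2, and the pooled ratio was 1.31 (1.13 to 1.51). By share of cells the direction turned, since FCER1G UMIs were seen in 25.7% (primed) and 31.2% (drug-susceptible) of cells, or 14.6% and 15.6% at 30000 UMIs per cell. LAPTM5 had 28.3 and 10.1 CPM in primed clusters 0 and 2 and 5.08 and 18.0 CPM in drug-susceptible clusters 1 and 3. SRGN was even across the 4 clusters, at 10.6 to 12.5 CPM. ITGB2, at 2 UMIs in primed WM989 cells, had 5.16 CPM in primed WM983B cells against 1.19 CPM.

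**Figure D3:**
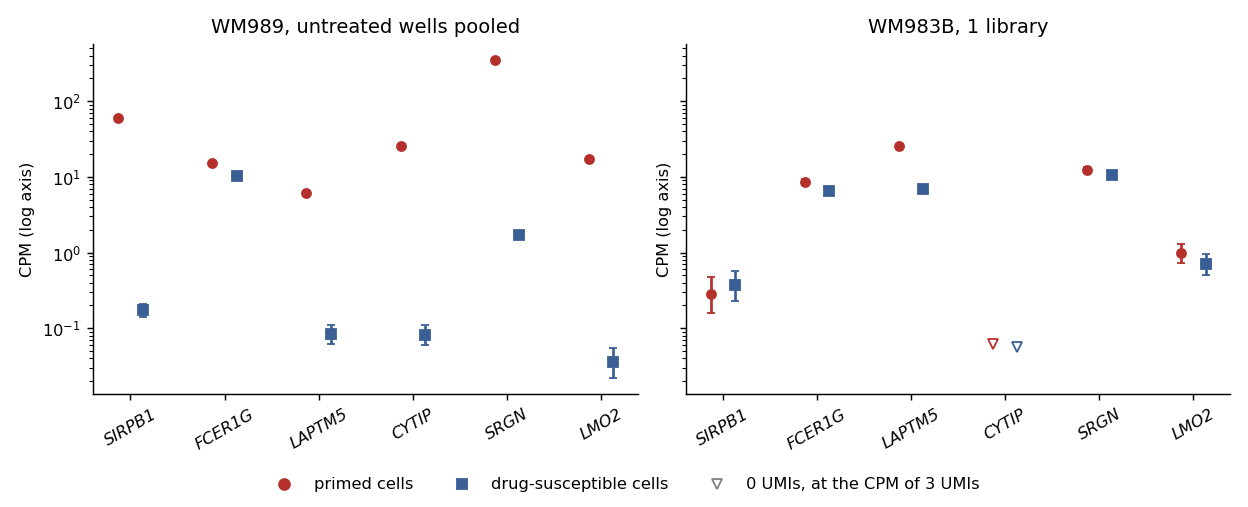
Pooled CPM (log axis) of the 6 genes in primed (circles) and drug-susceptible (squares) cells of WM989 and WM983B, with exact Poisson intervals of 95% and open triangles at the CPM of 3 UMIs where no UMI was found. The states are far apart for 5 genes in WM989, while in WM983B LAPTM5 at 25.9 and 6.88 CPM shows the widest gap.

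In the treatment experiment the question was how TGFB1 and inhibition of its receptors or of PI3K move these genes. Primed cells made up 2.26% (r1) and 4.47% (r2) of untreated cells, 29.1% and 31.3% of cells given TGFB1, 2.26% and 4.32% with TGFBRi and 0.647% and 1.21% with PI3Ki. The levels over all cells of a library carry both this share and the level per cell, and in such sums more cells of a type cannot be told apart from more RNA per cell. Over all cells, SIRPB1, FCER1G, LAPTM5, CYTIP and SRGN were called higher with TGFB1, and SRGN, SIRPB1 and LAPTM5 were called lower with PI3Ki. These are 5 and 3 of the 6 genes, where 29.0% and 12.7% of the 18389 genes tested were called in either direction. CYTIP was tested only because of its TGFB1 libraries, so its call by itself supports no rise. The genes were chosen for being higher in primed cells, whose share moved with TGFB1 and PI3Ki, so these counts are no support for a change in level per cell. None of the 6 was called with TGFBRi, where 2.53% of genes were. Tests here are edgeR's quasi-likelihood test with a term for the replicate and Benjamini-Hochberg adjustment over all genes tested, and a fold change is given as log2 with its standard error.

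LAPTM5 rose most. Over all cells it had 0.115 and 0.175 CPM in untreated r1 and r2 and 3.77 and 4.57 CPM with TGFB1, a log2 fold change of 4.82 ± 0.24 (edgeR adjusted p = 4.26e-13). FCER1G had 8.61 and 8.25 CPM in untreated cells and 26.5 and 23.4 CPM with TGFB1, a log2 fold change of 1.55 ± 0.09 (edgeR adjusted p = 1.09e-11). SIRPB1 went from 0.333 and 0.935 CPM to 2.41 and 2.24 CPM, a log2 fold change of 1.90 ± 0.27 (edgeR adjusted p = 9.14e-06). That of SIRPB1 was 1.22 without TGFB1 r1, 2.89 without TGFB1 r2 and 2.56 without untreated r2, and was called each time. For these 3 genes the untreated and treated libraries did not overlap.

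The calls of SRGN and CYTIP were less firm. SRGN had 2.89 and 7.43 CPM in untreated cells and 4.72 and 10.0 CPM with TGFB1. The conditions overlapped while each replicate rose, with a log2 fold change of 0.53 ± 0.11 (edgeR adjusted p = 0.000908, and 0.524 without the replicate term). CYTIP passed the filter on low counts only because of the TGFB1 libraries, so its call by itself supports no rise. It had 1 and 16 UMIs in untreated and 19 and 40 UMIs in treated cells, a log2 fold change of 1.74 ± 0.43 (edgeR adjusted p = 0.00359, 0.000264 without a filter on low counts, 0.114 without the replicate term and 0.0565 without TGFB1 r1). Without untreated r2 or TGFB1 r2 its log2 fold change was 3.9 or 3.3 (edgeR adjusted p = 0.00444 and 0.00373). LMO2 rested on 1 and 16 UMIs in untreated and 1 and 6 UMIs in treated cells and was not called (log2 −1.34 ± 0.66, edgeR adjusted p = 0.140).

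With PI3Ki, SRGN had 0.569 and 0.866 CPM over all cells, below both untreated libraries at 2.89 and 7.43 CPM (log2 −2.76 ± 0.15, edgeR adjusted p = 4.95e-11). SIRPB1 had 0.0997 and 0.253 CPM against 0.333 and 0.935 CPM (log2 −1.64 ± 0.42, edgeR adjusted p = 0.0109, with −0.95 without untreated r2 and −2.25 without PI3Ki r2). LAPTM5 fell to 2 and 3 UMIs from 9 and 14 UMIs (log2 −2.36 ± 0.65, edgeR adjusted p = 0.0188). The calls of SIRPB1 and LAPTM5 were lost without untreated r2, PI3Ki r1 or PI3Ki r2, where the adjusted p lay between 0.0523 and 0.367, and without the replicate term (0.174 and 0.106). With DESeq2 that of SIRPB1 was lost as well (adjusted p = 0.074). FCER1G, which drug-susceptible cells carry, had 8.84 and 9.84 CPM with PI3Ki and was not called (log2 0.26, edgeR adjusted p = 0.0873), although it was without a filter on low counts (0.0328) or without TGFBRi r1 (0.029) or r2 (0.0316).

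With TGFBRi, SIRPB1 had 0.315 and 0.961 CPM over all cells, against 0.333 and 0.935 CPM untreated. LMO2 rested on 1 and 2 UMIs, against 1 and 16 UMIs untreated, and was not called (log2 −2.49 ± 0.79, edgeR adjusted p = 0.110). It was called in 1 of the 8 fits that left out 1 library. SRGN had 3.49 and 9.73 CPM, above the untreated library of the same replicate, and did not pass the test (log2 0.36 ± 0.11, edgeR adjusted p = 0.102), although it did without TGFBRi r1 (0.00997) or without a filter on low counts (0.0111). FCER1G had 6.15 and 7.16 CPM, below both untreated libraries, and did not pass the test (log2 −0.32, edgeR adjusted p = 0.101), although it did without TGFBRi r2 (0.0336) or without a filter on low counts (0.0201).

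The share of the UMIs that came from primed cells set the genes apart. Primed cells held 88.5% (r1) and 93.3% (r2) of the SIRPB1 UMIs of untreated cells and 97.4% and 95.8% with TGFB1. They held 78.3% and 88.6% of those of SRGN in untreated cells, and 35.0% and 50.9% with PI3Ki. For FCER1G they held 2.38% and 7.70% in untreated cells and 34.7% and 41.0% with TGFB1.

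In drug-susceptible cells FCER1G, LAPTM5 and SRGN passed the filter on low counts, and SIRPB1, CYTIP and LMO2 did not. With TGFB1 14.9% of 17914 genes were called, FCER1G and LAPTM5 among them. LAPTM5 passed the filter through the TGFB1 libraries alone, with 37 and 34 UMIs against at most 7 in any other library. Its call by itself thus supports no rise, and without that filter its log2 fold change was 3.41. FCER1G had 8.55 and 7.86 CPM in untreated and 23.1 and 18.8 CPM in treated drug-susceptible cells (log2 1.34 ± 0.10, edgeR adjusted p = 1.32e-09). LAPTM5 had 0.0651 and 0.0386 CPM and then 0.619 and 0.544 CPM (log2 3.43 ± 0.46, edgeR adjusted p = 6.20e-06). Primed cells of the same libraries held 4 and 11 LAPTM5 UMIs in untreated and 264 and 354 in treated libraries, and the part of their free RNA in the low drug-susceptible level was not tested. Cluster 3, a drug-susceptible cluster, held 3801 TGFB1-treated and 115 untreated cells. Without it FCER1G still rose by 1.45 on the log2 scale (edgeR adjusted p = 1.55e-09), in a fit chosen after the data were seen. LAPTM5 had a log2 fold change of 2.34 ± 0.65 in that fit (edgeR adjusted p = 0.0159). Cluster 3 held 26 of its 37 UMIs in TGFB1 r1 and 26 of its 34 in r2. The LAPTM5 value thus rests on few UMIs, in a fit that the gene entered through the TGFB1 libraries. SRGN did not pass the test (log2 0.43, edgeR adjusted p = 0.234).

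SRGN was the one of the 3 genes tested in drug-susceptible cells that was called with the 2 inhibitors, against 2.81% of genes with TGFBRi and 12.1% with PI3Ki. Its level was 0.638 and 0.875 CPM in untreated, 1.0 and 1.86 CPM with TGFBRi (log2 0.92 ± 0.21, edgeR adjusted p = 0.0114) and 0.372 and 0.428 CPM with PI3Ki (log2 −0.88 ± 0.25, edgeR adjusted p = 0.0251). Primed cells of these libraries had 49.1 to 229 CPM of SRGN. The part of their free RNA in the low drug-susceptible levels was not tested. FCER1G was called only under other settings, without a filter on low counts (edgeR adjusted p = 0.0203 with TGFBRi and 0.0142 with PI3Ki), without TGFBRi r2 (0.0215 and 0.0138), and with PI3Ki also without TGFBRi r1 (0.014) or PI3Ki r1 (0.047). Neither SRGN call held with DESeq2 (adjusted p = 0.160 and 0.124) or without the replicate term (edgeR, 0.542 and 0.377). Without untreated r2 or TGFBRi r2 the first was lost (0.551 and 0.140), and without untreated r1 or PI3Ki r2 the second (0.152 and 0.647).

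Within primed cells the genes moved in opposite directions under TGFB1. SIRPB1, SRGN and LMO2 were called lower and FCER1G and LAPTM5 higher, where 13.3% of 10930 genes were called. LAPTM5 passed the filter on low counts only through the TGFB1 libraries, with 264 and 354 UMIs against at most 12 elsewhere. LMO2 reached the level of the filter only in untreated r2 and PI3Ki r2, at 6.44 and 15.6 CPM. A count over the genes that passed thus supports nothing, nor do the calls of LAPTM5 and LMO2. CYTIP did not pass the filter, with 0.745 and 5.63 CPM in untreated and 0.944 and 1.66 CPM in TGFB1-treated primed cells. The PI3Ki libraries held 25 and 70 primed cells, and 1454 genes were called with TGFB1, 41 with TGFBRi and 195 with PI3Ki.

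SRGN had 132 and 212 CPM in untreated primed cells and 17.1 and 33.6 CPM in those with TGFB1, a log2 fold change of −2.70 ± 0.14 (edgeR adjusted p = 4.62e-19). SIRPB1 had 17.1 and 28.2 CPM and then 9.34 and 8.14 CPM (log2 −1.34 ± 0.23, edgeR adjusted p = 3.74e-05). LMO2 had 1 and 16 UMIs and then 1 and 6 UMIs in far more cells (log2 −4.28 ± 0.79, edgeR adjusted p = 7.98e-05). As LMO2 was tested because of its level in untreated r2 and PI3Ki r2, this call supports no fall. The libraries of each of these 3 genes did not overlap in CPM. The calls of SIRPB1 and LMO2 were lost without untreated r2 (0.164 and 0.713) or TGFB1 r2 (0.137 and 0.438).

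LAPTM5 and FCER1G had higher levels in TGFB1-treated than in untreated primed cells. For LAPTM5, which was tested because of its TGFB1 libraries, the call by itself supports no rise. LAPTM5 had 2.98 and 4.43 CPM in untreated and 13.1 and 15.8 CPM in TGFB1-treated primed cells (log2 2.01 ± 0.33, edgeR adjusted p = 1.56e-05, and log2 2.10 without a filter on low counts). FCER1G had 11.9 and 20.5 CPM and then 36.6 and 36.5 CPM (log2 1.17 ± 0.20, edgeR adjusted p = 2.73e-05).

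The primed state was made of different clusters in these conditions. Cluster 4 held 3254 of the TGFB1-treated primed cells and 11 of the untreated ones, and cluster 10 held 80 and 248. Over all conditions cluster 4 had 26.3 CPM of SRGN, 8.81 of SIRPB1, 14.8 of LAPTM5 and 36.1 of FCER1G, and cluster 10 had 162, 22.2, 3.10 and 17.7 CPM. In cluster 10 alone, a fit chosen after the data were seen in which 2.71% of 9481 genes were called with TGFB1, SRGN fell by 3.13 ± 0.31 and SIRPB1 by 1.78 ± 0.48 on the log2 scale, and FCER1G rose by 1.38 ± 0.34 (edgeR adjusted p = 2.15e-07, 0.0412 and 0.0195). The TGFB1-treated cells of cluster 10 numbered 29 (r1) and 51 (r2). They held 10 and 10 UMIs of SRGN, 2 and 5 of SIRPB1 and 11 and 35 of FCER1G, so these values rest on few UMIs, above all for SIRPB1. In the same fit SRGN fell by 1.78 ± 0.25 with PI3Ki (edgeR adjusted p = 0.00013), 1 of the 3 genes tested, where 1.10% of genes were called, and with TGFBRi none of the 3 was called, where 0.0527% of genes were. LAPTM5 rested on 13 UMIs in untreated and 3 UMIs in treated cells of cluster 10, at 3.58 and 3.09 CPM. Primed cells had a lower median depth than drug-susceptible cells in this experiment, with 11211 and 16825 UMIs.

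The change of SRGN with TGFB1 differed between primed and drug-susceptible cells. Its log2 fold change was lower by 3.04 ± 0.25 in primed cells (edgeR interaction, adjusted p = 8.49e-32, chosen after the data were seen), where 9.98% of 18502 genes were called. For SIRPB1 no difference is drawn, since its drug-susceptible counts were 3 and 5 UMIs untreated and 5 and 8 UMIs with TGFB1 and it was in this fit through its primed libraries. For FCER1G the difference was −0.12 ± 0.21 (edgeR adjusted p = 0.821) and for LAPTM5 −1.35 ± 0.70 (0.258), so none was shown.

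With PI3Ki, SRGN also fell within the few primed cells that remained, to 49.1 and 56.0 CPM from 132 and 212 CPM (log2 −1.87 ± 0.21, edgeR adjusted p = 4.26e-08), the one of the 5 genes called, where 1.78% of genes were. SIRPB1 stood at 24.5 and 30.1 CPM in the same cells (log2 0.20). LMO2 had 0 and 15 UMIs there, 15.6 CPM in r2. With TGFBRi none of the 5 was called, where 0.375% of genes were, and SRGN had 138 and 229 CPM, SIRPB1 15.3 and 24.8 CPM.

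**Figure D4:**
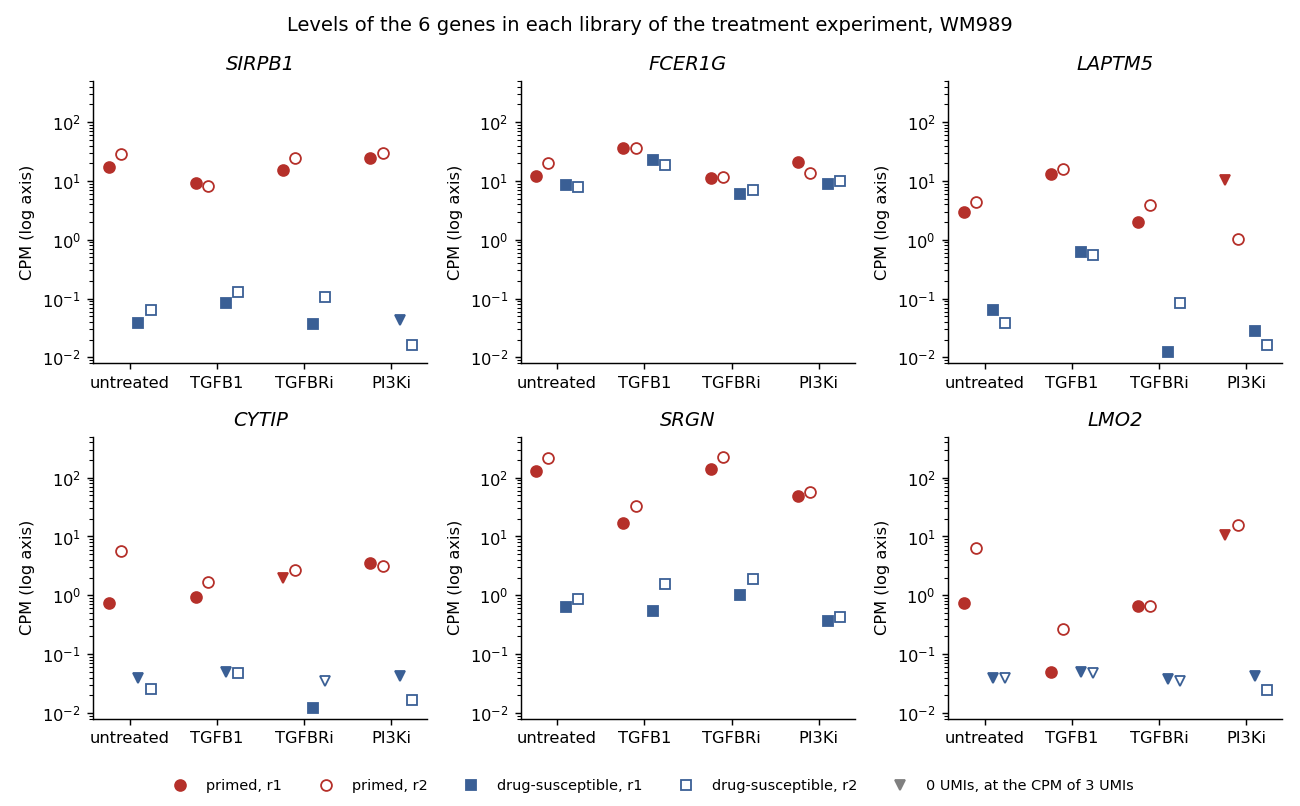
CPM (log axis) of the 6 genes in primed (circles) and drug-susceptible (squares) cells of each library, with r1 filled, r2 open and triangles at the CPM of 3 UMIs where no UMI was found. With TGFB1, SRGN in primed cells lies at 17.1 and 33.6 CPM below the untreated 132 and 212 CPM, while LAPTM5 and FCER1G lie above their untreated values in both states.

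The listed partners were tested with TGFB1 over all cells, where the share of primed cells changed as well. The counts stand against 29.0% of all genes called in either direction. Of 12 measured genes of chondroitin sulfate synthesis and the receptor, 8 rose and 1 fell (median log2 0.32, against 0.01 over all genes tested), among them CD44 by 0.64 and CHPF2 by 0.66. Within primed cells 1 of 11 rose (median log2 0.00066), where 13.3% of genes were called. Within drug-susceptible cells 4 of 12 rose (median log2 0.10), where 14.9% were. In cluster 10, CD44 fell by 0.78 on the log2 scale (edgeR adjusted p = 0.0156). Of 6 LAPTM relatives and ligases 2 rose and 2 fell, LAPTM4A by 0.58 and NEDD4L by −0.86. Of 8 LMO2 partners and relatives 3 rose, GATA3 by 1.20 and LMO4 by 0.47 among them, and GATA2 fell. Of 7 cytohesins and integrin partners 2 rose, CYTH1 by 0.81 and CYTH2 by 0.33. Of 8 adaptors and receptors around SIRPB1 and FCER1G none rose and 2 fell. Of 7 measured leukocyte markers 3 were called higher, CSF1R among them with a log2 fold change of 4.94 (edgeR adjusted p = 2.72e-13). CSF1R passed the filter on low counts through the TGFB1 libraries, so its call by itself supports no rise. Of 7 melanocyte genes 4 fell.

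Open chromatin at the 6 genes was read from the peak lists of the 12 ATAC libraries. The fold enrichment of a peak is its height over the local background. Peaks were merged into 151823 regions found in at least 3 libraries, and 37 of these overlap one of the 6 genes or lie within 10 kb of one. None of the 37 covers the annotated start site of its gene. With limma on log2 of the fold enrichment, 1 of the 37 was called between EGFR-high and Mix, 5 between NGFR-high and Mix and 6 between EGFR/NGFR-high and Mix, where 5.41%, 9.45% and 11.4% of all regions were. They are 8 distinct regions, 4 at LAPTM5, 2 at LMO2 and 1 each at SIRPB1 and FCER1G. No region of CYTIP (6 regions) or SRGN (4 regions) was called.

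Windows of 300 bases around the summits of 5 of these regions are shown, because they are the regions at LMO2, SIRPB1 and LAPTM5 that were called between EGFR/NGFR-high cells and Mix. The sequence is that of the hg38 reference on its plus strand. Capitals mark matches on either strand to the core letters of 6 factor families, namely TGANTCA for AP-1, GGAAGT for the ETS family, TGTGGT for the RUNX family, GGAATG for the TEAD family, ACAAAG for the SOX family and AGATAA for the GATA family.
LMO2, chr11:33899389-33899688: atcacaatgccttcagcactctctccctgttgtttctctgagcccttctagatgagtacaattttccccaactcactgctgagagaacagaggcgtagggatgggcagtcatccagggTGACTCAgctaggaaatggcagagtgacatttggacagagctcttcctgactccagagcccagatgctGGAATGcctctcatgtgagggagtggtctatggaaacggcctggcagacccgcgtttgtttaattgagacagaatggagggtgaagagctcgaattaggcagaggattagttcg
LMO2, chr11:33891429-33891728: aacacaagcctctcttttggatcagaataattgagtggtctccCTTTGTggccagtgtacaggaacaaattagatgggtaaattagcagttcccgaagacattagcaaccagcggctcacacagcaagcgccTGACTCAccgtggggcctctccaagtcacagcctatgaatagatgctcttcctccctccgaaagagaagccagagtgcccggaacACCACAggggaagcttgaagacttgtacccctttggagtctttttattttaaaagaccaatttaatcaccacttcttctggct
LAPTM5, chr1:30756628-30756927: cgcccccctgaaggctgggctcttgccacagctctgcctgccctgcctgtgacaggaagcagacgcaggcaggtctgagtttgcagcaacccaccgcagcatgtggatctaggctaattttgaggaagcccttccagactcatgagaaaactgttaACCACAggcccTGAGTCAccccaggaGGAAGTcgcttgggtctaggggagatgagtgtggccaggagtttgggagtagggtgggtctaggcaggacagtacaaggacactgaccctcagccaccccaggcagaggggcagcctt
LAPTM5, chr1:30727846-30728145: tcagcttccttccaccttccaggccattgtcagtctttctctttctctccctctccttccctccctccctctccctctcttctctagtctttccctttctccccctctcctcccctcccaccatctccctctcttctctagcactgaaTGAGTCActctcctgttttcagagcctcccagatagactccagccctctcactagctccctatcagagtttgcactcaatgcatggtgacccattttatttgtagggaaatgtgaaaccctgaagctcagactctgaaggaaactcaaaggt
SIRPB1, chr20:1567518-1567817: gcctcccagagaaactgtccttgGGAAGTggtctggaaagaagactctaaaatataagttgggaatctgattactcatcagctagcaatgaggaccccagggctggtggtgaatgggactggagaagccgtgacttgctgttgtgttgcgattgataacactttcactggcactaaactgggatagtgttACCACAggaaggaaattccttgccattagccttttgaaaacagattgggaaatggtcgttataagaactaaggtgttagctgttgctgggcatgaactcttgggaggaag
The AP-1 letters stand in 4 of these 5 windows, and with the 2 LAPTM5 regions not printed in 5 of 7. They stand in 21.4% of 151822 windows of the same length around region summits. That share covers all regions, and the share over called regions alone was not computed, so no excess at these genes is read from it. The match lies 29 bases from the summit in the upstream LMO2 region, 15 bases in the LMO2 intron, 20 bases in the LAPTM5 intron and 1 base in the region downstream of LAPTM5. The SIRPB1 window holds ETS and RUNX letters and no AP-1 letters. No window of the 7 holds the GATA letters, which stand in 17.1% of all windows. ETS letters stand in 20.6%, RUNX in 26.5%, TEAD in 20.7% and SOX in 27.9% of all windows. A match describes letters and does not show binding.

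The 2 regions of LMO2 were peaks only in cells sorted for high EGFR or NGFR. The upstream region (chr11:33899340-33899689, 7.4 kb before the start site) had a fold enrichment of 12.2, 9.45 and 10.4 in EGFR/NGFR-high cells and 11.1, 5.69 and 5.17 in NGFR-high cells. No peak was called there in EGFR-high or Mix cells, which were set to 1, while the weakest peak of a library had 2.68 to 3.14, so these differences depend on that setting. The log2 difference from Mix was 3.41 ± 0.54 for EGFR/NGFR-high (limma adjusted p = 0.00075) and 2.79 ± 0.54 for NGFR-high cells (limma adjusted p = 0.0043). With absent peaks set to the weakest peak of their library these were 1.85 and 1.22. The upstream region met the rule of at least 3 libraries only through these 2 sorts, so its calls by themselves are no support for a difference. The intronic region (chr11:33891444-33891694, 0.5 kb inside the gene) had 7.14, 5.67 and 5.95 in EGFR/NGFR-high cells, 4.26 in 1 EGFR-high library and no peak elsewhere (log2 2.64 ± 0.65, limma adjusted p = 0.0150, or log2 1.08 with absent peaks at the weakest peak). The intronic region met the rule of at least 3 libraries only through the EGFR/NGFR-high sort, so its call is no support for a difference. At both regions every Mix library held the set value of 1, so leaving out a Mix library cannot move the Mix mean. With these limits, both regions remained called without any 1 of the 12 libraries, which adds no support.

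SIRPB1 had a region in an intron (chr20:1567541-1567995) that lies 52.2 kb from its own start site and 10.1 kb from that of SIRPD, the nearest. Its fold enrichment was 5.95, 4.25 and 5.46 in EGFR/NGFR-high cells and 4.37 in 1 NGFR-high library, with no peak in the other 8 libraries (log2 2.37 ± 0.65, limma adjusted p = 0.0268, or log2 0.81 with absent peaks at the weakest peak). The region met the rule of at least 3 libraries only through the EGFR/NGFR-high sort, so its call is no support for a difference. Leaving out any Mix library, or EGFR/NGFR-high library 1 or 3, took the adjusted p to between 0.0548 and 0.0741.

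LAPTM5 had peaks in all 12 libraries at its 4 called regions. In an intron near the start (chr1:30756466-30757466, 0.8 kb inside the gene) the fold enrichment was 12.1, 15.6 and 17.4 in Mix, 18.8, 18.0 and 16.6 in EGFR-high, 36.6, 25.8 and 22.6 in NGFR-high and 36.0, 29.3 and 23.3 in EGFR/NGFR-high cells. Both NGFR sorts lay above Mix without overlap (log2 0.90 ± 0.20 and 0.97 ± 0.20, limma adjusted p = 0.00958 and 0.00513), and the first of these calls was lost without Mix library 1 (0.0511) or NGFR-high library 1 (0.0705). Downstream of the gene (chr1:30727791-30728195) Mix had 6.84 ± 1.04 and EGFR/NGFR-high cells 12.6 ± 2.99 (SD, n = 3; log2 0.87, limma adjusted p = 0.0352). The other 2 regions differed in NGFR-high cells alone, the one over exon 8 upward (log2 0.69, limma adjusted p = 0.0398) and one downstream of the gene, nearer to it than the last, downward (log2 −0.74, 0.0219). These last 3 calls were each lost when some single libraries were left out.

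FCER1G was the one gene with a region higher in Mix than in all 3 sorts. The region 1.8 kb before its start site had 45.7, 39.6 and 41.1 in Mix, above every sorted library, which ran from 17.9 to 31.8. The log2 differences were −0.82 ± 0.18 for EGFR-high, −0.82 ± 0.18 for NGFR-high and −0.71 ± 0.18 for EGFR/NGFR-high cells (limma adjusted p = 0.0156, 0.00954 and 0.0180). These calls were lost without 2, 1 and 3 of the 12 libraries, with adjusted p between 0.0578 and 0.0823, and all 3 with the 50000 strongest peaks per library (0.230 to 0.732). In bulk chromatin, too, a larger share of cells with a peak and a higher peak in each cell cannot be told apart.

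**Figure D5:**
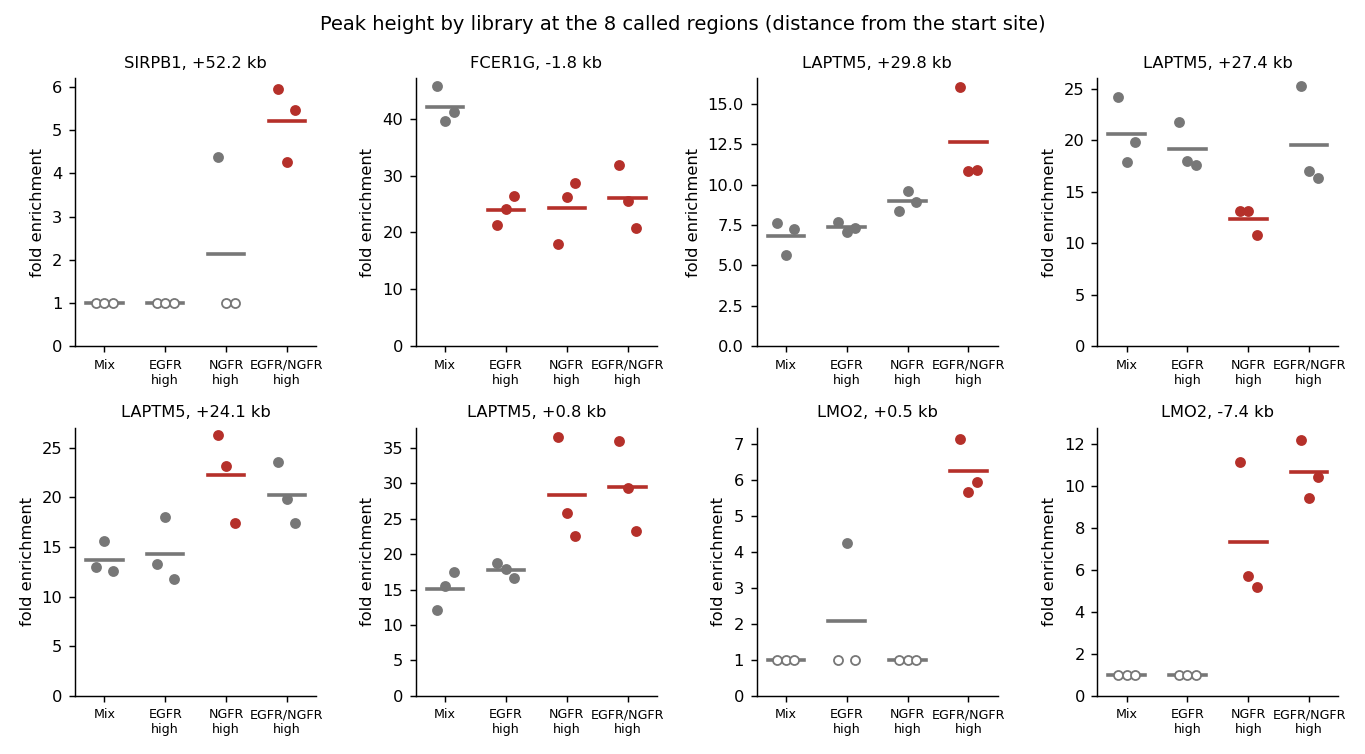
Fold enrichment of the peak in each ATAC library (points, n = 3 per sort) and the mean of the sort (line) at the 8 called regions, with the distance from the start site in kb in each title, red for sorts called against Mix and open points where no peak was called (set to 1). At LMO2 −7.4 kb the EGFR/NGFR-high libraries lie at 9.45 to 12.2 and Mix at 1, and at FCER1G −1.8 kb the Mix libraries at 39.6 to 45.7 lie above all others.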

How the data were processed

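Counts of UMIs per gene and cell were deposited by the authors, who made them with Cell Ranger on hg38 and removed low-quality cells and likely doublets. Their cell labels gave library, replicate, cluster, state and phase. Fold enrichment, a ratio over local background, and −log10 of the q-value come from the authors' MACS2 2.1.1.20160309 peaks per library, deposited after Bowtie2 2.3.4.1. The −log10 values ranked peaks in an alternative.

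The genes and lists were chosen with earlier results of these data known. Named beside the 6 genes are the 3 genes most like each over clusters, and list members that passed a test or were highest. For each state, counts were summed per library. Sums were tested with edgeR 4.0.16 (filterByExpr, TMM, two-sided, threshold 0.05, at least 20 cells per library), with replicate as a term because the methods split the cells of a replicate over the 4 plates. Every pair of treatments shared this replicate difference (Pearson's r 0.256 to 0.365, 6 pairs). Over all cells without a filter on low counts, and in the interaction, edgeR took the spread as known exactly. Those p-values leave out its uncertainty. Peaks were tested with limma 3.58.1 without a block. Cells were thinned to 10000 (untreated WM989), 30000 (WM983B) or 5000 UMIs (treatments, 33 cells left out). The tests were checked on simulated data. DESeq2 1.42.0, no filter, no replicate term, lineage-barcoded or G1 cells, fewer libraries and fewer peaks were alternatives. Replicates are called Mix and Primed in the sample labels and r1 and r2 in the cell labels, and no source used here links these names. Whether replicates were separate cultures is not stated for every experiment, so p-values may cover technical spread only. A marker gene and the sequence of 1 region are not reported here.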

Additional observations from a re-analysis of the deposited data

Results flagged for a closer look

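LMO2 in drug-susceptible WM989 cells had 0.485 CPM in well 5, far from the other 7 wells for a group of this size. It was 1 of 12 groups of wells examined, of which chance gives about 1 in 20, and it rests on 5 UMIs in 83 cells.

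SIRPB1 had unlike ratios with TGFB1 in the 2 states, but too few UMIs in one of them to show a difference. In primed cells the log2 ratio of TGFB1-treated to untreated CPM was −0.88 in r1 and −1.79 in r2, and in drug-susceptible cells it was 1.10 and 0.99, which rests on 3 and 5 UMIs in untreated and 5 and 8 UMIs in treated cells and did not pass a test without a filter on low counts (log2 0.97 ± 0.78, edgeR adjusted p = 0.642). The edgeR interaction (primed minus drug-susceptible) gave −2.20 on the log2 scale, in a fit that SIRPB1 entered through its primed libraries, so it is given as a value only. For SRGN this difference was −3.04.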

How the results depend on the processing

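All 6 genes stayed higher in primed WM989 cells in every well with only lineage-barcoded cells, only G1 cells, thinned shares or any 1 well left out. The ratio of LMO2 became 888 in G1 cells, and that of SRGN 63.4 as a thinned share. In WM983B the thinned share gave 0.938 for FCER1G, which turned, and 2.34 for LAPTM5, G1 cells gave 1.63 and 1.42 for FCER1G and SRGN and 1.96 for SIRPB1 (0.773 in all cells), and LAPTM5 was 5.10 without cluster 3. Without the replicate block, which pairs libraries of the same starting cells, the genes called numbered 40 (TGFBRi) and 649 (PI3Ki) over all cells, 1189 (TGFB1), 47 (TGFBRi) and 570 (PI3Ki) in drug-susceptible cells and 9 (TGFBRi) and 87 (PI3Ki) in primed cells, against 466, 2328, 2665, 503, 2170, 41 and 195 with it. DESeq2 called 326 (TGFBRi, drug-susceptible), 693 (TGFB1, primed) and 16 (TGFBRi, primed), and no filter on low counts 748 (TGFBRi, all cells). In cluster 10 alone 257, 5 and 104 genes were called with TGFB1, TGFBRi and PI3Ki. With 50000 peaks per library 2223, 2699 and 3057 regions were called in EGFR-high, NGFR-high and EGFR/NGFR-high cells, out of fewer regions, and 3 calls of the FCER1G region and 2 of LAPTM5 regions in NGFR-high cells were lost. The cause of the other shifts was not tested. A replicate block for the ATAC libraries, whose same-numbered samples did not deviate together (r −0.011 to 0.101), gave 8884, 15288 and 17895 regions against 8217, 14353 and 17270. Requiring an overlap of 0.5 of a peak gave the same counts, since each peak lies whole within its merged region.

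Leaving out 1 library at a time gave 3164 to 6377, 168 to 1146 and 719 to 3298 genes called over all cells with TGFB1, TGFBRi and PI3Ki, 988 to 3722, 206 to 1247 and 632 to 3286 in drug-susceptible cells, and 584 to 1726, 17 to 63 and 96 to 239 in primed cells. In ATAC it gave 3139 to 8577, 5616 to 14864 and 9184 to 17061 regions. Values that turned sign had not passed the test in the fit with all libraries. Over all cells with TGFBRi they were SIRPB1 (−0.80 to 0.71), LAPTM5 (−1.41 to 0.48) and CYTIP (−2.09 to 1.20), and with PI3Ki CYTIP (−2.18 to 0.44) and LMO2 (−4.14 to 0.38). In drug-susceptible cells they were SRGN with TGFB1 (−0.14 to 0.73, and −0.12 without cluster 3) and LAPTM5 with TGFBRi (−2.08 to 0.85). In primed cells they were SIRPB1 (−0.65 to 0.23) and SRGN (−0.0083 to 0.16) with TGFBRi and FCER1G (−0.48 to 0.32) and LMO2 (−6.24 to 1.90) with PI3Ki.

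Depth limits LMO2 and CYTIP in the treatment experiment, where untreated libraries held 1 and 16 UMIs of each, and SIRPB1 in WM983B.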
